A study of Mus musculus with 12 samples.

Results

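The genes described here are the mouse zinc finger genes whose symbol is Zfp followed only by a number. The set holds 214 genes of 18417 gene models tested between knockdown and wild-type frontal cortex. The genes were chosen by their symbol and their measured level: each was tested under its own symbol in all 3 deposited comparison tables, and its mean of wild type and knockdown was at least 2 FPKM in the first table. FPKM counts sequenced fragments per length of transcript and per size of the library. Of 307 numbered symbols with a model of their own, 288 were tested and 219 reached that level. Zfp212, Zfp410, Zfp524, Zfp668 and Zfp865 were then lost because another table had merged them with a neighbouring gene. The other 69 tested symbols lay below the minimum. Just inside it were Zfp583 at 2.004, Zfp709 at 2.04 and Zfp11 at 2.05 FPKM, and just outside it Zfp873 at 1.99, Zfp747 at 1.98 and Zfp128 at 1.97 FPKM.

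Polyadenylated RNA came from 12 male F1 hybrid mice of C57Bl/6 and 129/SvlmJ, 14 weeks of age, 4 per group. The labels WT, GluN1 and GluN1Cre are written below as wild type, knockdown and rescue, since the series names Grin1 knockdown and Cre rescue. Grin1 encodes the NMDA receptor subunit GluN1. Tamoxifen, the drug that switches on inducible Cre recombinases, was given to all 3 groups beginning at 10 weeks, as a gavage dose of 6 mg followed by chow holding roughly 14 mg. The labels do not name the promoter that drives Cre, and they do not say whether wild-type or knockdown animals carried any Cre allele. Only the name of the rescue group holds Cre, and if the other groups had none, effects of Cre and of restored Grin1 cannot be told apart. Grin1 itself stood at 138 FPKM in wild type and 56.7 in knockdown, 41.0% of wild type. In the table of rescue against knockdown it stood at 65.7 and 86.7 FPKM, and in the table of rescue against wild type the rescue level of 78.0 FPKM was 56.5% of wild type. The authors' tables give 1 value per group, so no spread between animals can be given for any gene, and read depth is unknown.

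A C2H2 zinc finger is a short protein fold held together by a zinc ion between cysteines and histidines, and arrays of such fingers bind DNA, RNA or other proteins. Many of these genes also encode a KRAB box, which recruits the co-repressor Trim28 (KAP1) and through it histone methylation and heterochromatin proteins. KRAB zinc finger genes lie in chromosomal clusters of related copies, and many of them silence transposable elements or keep imprints. Another group of zinc finger genes, among them Egr1 and Klf10, is known in neurons for transcription that follows synaptic activity.

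Only Zfp189 and Zfp948 passed the threshold of the study in any comparison (p under 0.05 and q under 0.10), and both were lower than in wild type. The stretch from 150 bases before to 10 bases after the RefSeq start site of each is shown because both hold the letters TGACGT, in capitals. These letters are the core of the cAMP response element, a sequence that the activity-dependent factor CREB binds. Both are written 5′ to 3′ on the plus strand of GRCm38.p6, at chr4:49521026-49521185 for Zfp189 and chr17:21566828-21566987 for Zfp948.
Zfp189: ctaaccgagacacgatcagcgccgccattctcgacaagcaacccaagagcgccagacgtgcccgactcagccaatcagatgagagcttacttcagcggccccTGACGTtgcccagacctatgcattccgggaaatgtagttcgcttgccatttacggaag
Zfp948: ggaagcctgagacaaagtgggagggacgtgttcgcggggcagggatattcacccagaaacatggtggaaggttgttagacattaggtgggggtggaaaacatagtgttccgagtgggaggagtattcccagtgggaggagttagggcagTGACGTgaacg
The match lay at positions -48 to -43 in Zfp189 and at -1 to 5 in Zfp948, counted from the start site.

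The RefSeq promoter table (GRCm38.p6, 250 bases before to 50 after each start) held 174 of the 214 genes. TGACGT was found on either strand in 25 of them, 14.4%, beside 8.37% of all 27025 genes in that table. The full palindrome TGACGTCA, whose matches are counted among those of TGACGT, was found in 6 genes, 3.45% beside 2.03% of all genes. The EGR letters GCGTGGGCG were found in 1 gene, Zfp507, 0.575% beside 0.707% of all genes. The 27025 genes include genes of any level in cortex, while the 174 had a mean of at least 2 FPKM. No share among expressed genes was counted, so these shares do not show an excess of the letters in numbered Zfp genes. For 5 of the 6 genes with the palindrome, 40 bases around it are shown to set against the shorter letters of Zfp189 and Zfp948. They are read 5′ to 3′ on the minus strand of GRCm38.p6, at chr2:164911793-164911832, chr13:64152455-64152494, chr9:20521413-20521452, chr9:20492745-20492784 and chr8:69625180-69625219 in that order.
Zfp335: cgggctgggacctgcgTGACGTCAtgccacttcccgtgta
Zfp367: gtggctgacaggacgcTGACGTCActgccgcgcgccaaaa
Zfp266: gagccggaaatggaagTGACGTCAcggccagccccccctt
Zfp426: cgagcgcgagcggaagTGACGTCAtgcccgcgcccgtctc
Zfp868: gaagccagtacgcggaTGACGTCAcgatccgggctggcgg
None of the 6 was called in any comparison. Log2 folds of knockdown against wild type were -0.01 for Zfp335, -0.05 for Zfp367, -0.00 for Zfp266, -0.04 for Zfp426, -0.03 for Zfp868 and -0.04 for Zfp295, the sixth. In rescue against knockdown and rescue against wild type, the log2 folds of Zfp367 were above 0, at 0.15 and 0.10. Those of Zfp335 were -0.01 and -0.02. A match of letters describes the window and is not a measured binding site.

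Most numbered Zfp genes were expressed at low levels. Their median was 5.32 FPKM with quartiles of 3.58 and 8.63, beside a median of 12.01 FPKM over all tested models of at least 2 FPKM. In all, 103 genes lay under 5 FPKM, 65 from 5 to 10, 36 from 10 to 20 and 10 at 20 or more. Zfp365, whose protein binds the brain scaffold protein DISC1, was the highest at 171 FPKM in wild type and 162 in knockdown. Zfp238, now called Zbtb18, is a repressor needed for the development of cortical neurons and came next, at a mean of 84.99 FPKM. Zfp106, an RNA-binding protein, followed at 52.6 FPKM. The scripted search found 0 finger patterns in Zfp365, 3 in Zfp106 and 4 in Zfp238, below the median of 10 in the set. Summed over the 214 genes, the level was 1824 FPKM in wild type and 1802 in knockdown, 1783 in knockdown and 1791 in rescue, and 1796 in wild type and 1781 in rescue, in the 3 tables. The summed level differed by at most 0.02 on the log2 scale between any pair of groups.

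**Figure D1:**
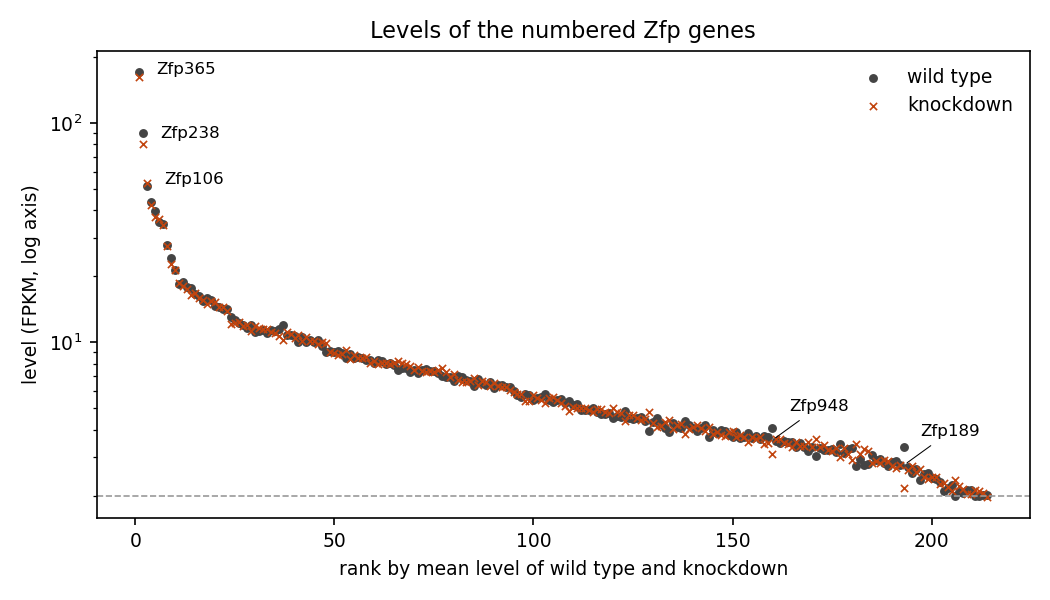
Level of each numbered Zfp gene (FPKM, log axis) in wild type (circles) and knockdown (crosses), ordered by the mean of both, with the minimum of 2 FPKM as a dashed line. The symbols of a gene overlap along most of the curve, from Zfp365 at 171 and 162 FPKM downwards, and lie apart at Zfp948 and Zfp189.

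Knockdown was compared with wild type to ask which transcripts differ when Grin1 is low. The values of this table also chose the genes, so its results are given as a description. Zfp189 and Zfp948 were called lower and 0 of the 214 were called higher, 0.935% called, while 2.52% of all tested models were called, 0.858% lower and 1.66% higher. An unadjusted p under 0.05 was reached by 5 of the 214, 2.34%. It was reached by 7.91% of all tested models and 7.23% of those of at least 2 FPKM. Zfp189 stood at 3.35 FPKM in wild type and 2.16 in knockdown, a log2 fold of -0.63. It encodes a protein with 16 finger patterns at chromosome 4, bases 49521176 to 49531517 on the plus strand (GENCODE M21 on GRCm38), and has been studied in mouse prefrontal cortex in relation to stress. Zfp948, a KRAB zinc finger gene with 15 finger patterns at chromosome 17, bases 21567008 to 21588699 on the plus strand, stood at 4.07 and 3.11 FPKM, a log2 fold of -0.39. Next by size among the lower genes was Zfp46, at 12.01 and 10.2 FPKM (-0.23), and it was not called. The largest positive log2 fold was that of Zfp57, the KRAB zinc finger protein that keeps imprints in the embryo, at 2.73 FPKM in wild type and 3.43 in knockdown (0.33), followed by Zfp933 at 3.93 and 4.82 FPKM (0.29). Neither was called.

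The remaining genes lay close to 0. The median log2 fold was -0.00 over the set and -0.01 over all tested models of at least 2 FPKM, with 106 genes above 0 and 108 below. From the 5th to the 95th percentile the set ran from -0.13 to 0.13, and all tested models of at least 2 FPKM from -0.19 to 0.22. Of the 214 genes 10, or 4.67%, lay beyond 0.2 in either direction, beside 10.2% of those models. Low-level models vary more, so the same count was made within levels. From 2 to 5 FPKM, 9 of 103 genes, 8.74%, lay beyond 0.2, beside 20.3% of the models at that level. From 5 to 10 FPKM, 0 of 65 genes did, beside 10.2% of models. Here and in the comparisons below, the models include unnamed and merged ones and were not required to be tested in every comparison. The genes of the set were, and the part of this difference in the narrower spread was not tested.

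**Figure D2:**
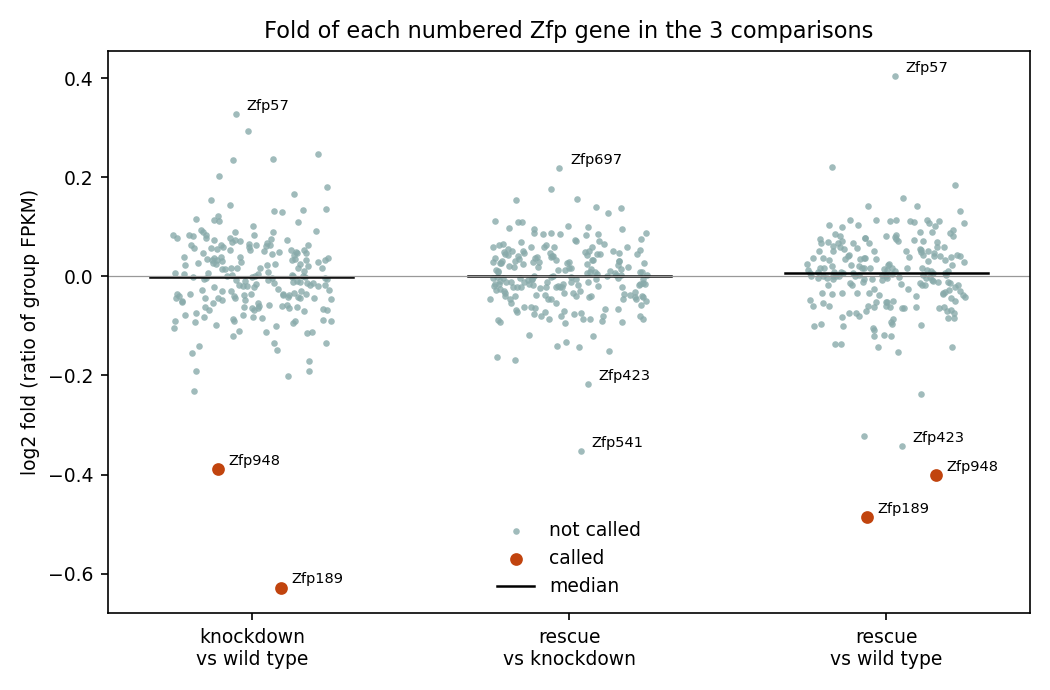
Log2 fold of each of the 214 genes (ratio of group FPKM, points spread sideways for legibility) in the 3 comparisons, with called genes in orange and the median as a bar. Zfp189 and Zfp948 lie apart below 0 in both comparisons with wild type, and no gene is called between rescue and knockdown.

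Rescue was compared with knockdown to ask which transcripts move when Grin1 is partly restored in the adult. None of the 214 numbered Zfp genes was called by the authors' Cuffdiff test, 0% beside 0.689% of all tested models (0.559% lower and 0.13% higher). An unadjusted p under 0.05 was reached by 3 genes, beside 4.19% of all tested models. In the authors' deposited table these were Zfp697 (4.45 FPKM in knockdown and 5.18 in rescue, log2 fold 0.22, q = 0.857), Zfp238 (81.1 and 91.6 FPKM, log2 fold 0.18, q = 0.890) and Zfp423 (3.50 and 3.01 FPKM, log2 fold -0.22, q = 0.9999). Zfp423 is a transcription factor of neural precursors. Zfp189 stood at 2.17 FPKM in knockdown and 2.39 in rescue, a log2 fold of 0.14 with q = 0.9999 in the authors' deposited table. Zfp948 stood at 3.10 and 3.05 FPKM, a log2 fold of -0.02. Neither gene passed the test between knockdown and rescue, which does not show that its level was the same. The median log2 fold was -0.00 in the set and over all tested models of at least 2 FPKM, with 107 genes on each side of 0. Beyond 0.2 lay 3 genes, 1.402%, beside 5.71% of those models. The third of them, Zfp541, had the largest negative log2 fold of the set here, -0.35, at levels of 0.363 and 0.284 FPKM.

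Rescue was also compared with wild type, which asks what remains different after the rescue. The wild-type libraries are the same as in the first comparison, so the values stand side by side and do not repeat each other independently. Zfp189 fell from 3.29 FPKM in wild type to 2.35 in rescue, a log2 fold of -0.49 with q = 0.00980 in the authors' deposited table. Zfp948 fell from 3.97 to 3.01 FPKM, a log2 fold of -0.40 with q = 0.0915 in the authors' deposited table. These were the called genes, 2 of 214 or 0.935%, beside 0.841% of all tested models. All called models in the lower direction made up 0.478%, and 0 of the 214 genes were called higher, beside 0.364%.

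An unadjusted p under 0.05 was reached by 5 of the 214 genes, 2.34%, in the authors' deposited table of rescue against wild type. It was reached by 4.32% of all tested models and 4.02% of those of at least 2 FPKM. Of the 5 genes, 3 did not pass q. Zfp423 stood at 3.78 FPKM in wild type and 2.98 in rescue, a log2 fold of -0.34 with p = 0.0018 and q = 0.180 in the authors' deposited table. Its log2 fold was -0.12 between knockdown and wild type, so the rescue level was the lowest of the 3 groups. Zfp46 stood at 11.9 and 10.1 FPKM, a log2 fold of -0.24 with q = 0.465 in the authors' deposited table, close to the -0.23 between knockdown and wild type. Zfp341 stood at 5.29 and 4.23 FPKM, a log2 fold of -0.32 with p = 0.0486 in the authors' deposited table, but its level depended on the table. Zfp57 again had the largest positive log2 fold, 0.40, at 2.63 FPKM in wild type and 3.48 in rescue, with p = 0.0559 in the authors' deposited table.

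The median log2 fold of rescue against wild type was 0.01 in the set and -0.01 over all tested models of at least 2 FPKM. Of the 214 genes 119, 55.6%, lay above 0, beside 42.6% of those models. The middle 90% of the genes spanned -0.12 to 0.11, and 7 genes, 3.27%, lay beyond 0.2, beside 6.43% of the models. From 2 to 5 FPKM this was 6 of 99 genes, 6.06%, beside 13.2% of models at that level.

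**Figure D3:**
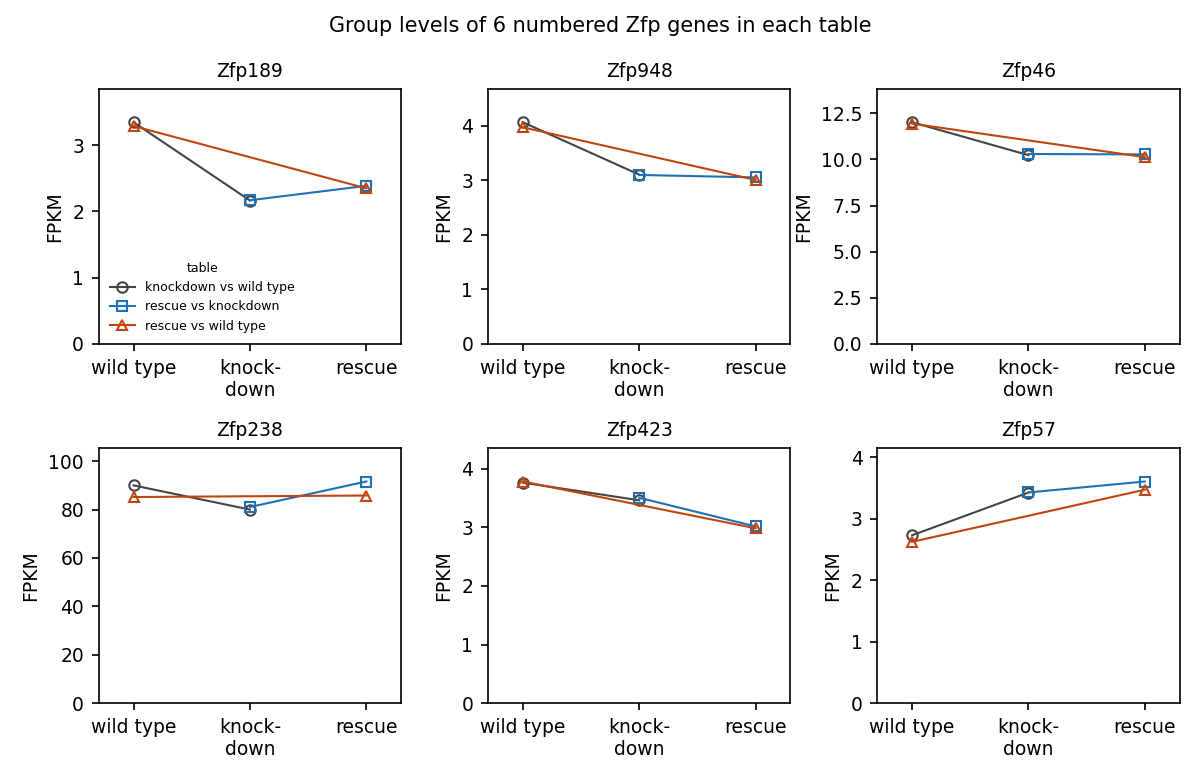
Levels (FPKM, axes from 0) of Zfp189, Zfp948, Zfp46, Zfp238, Zfp423 and Zfp57 in wild type, knockdown and rescue, with 1 point per group and a line joining the pair of groups of each table. Zfp189, Zfp948 and Zfp46 have their knockdown and rescue points close together below wild type, Zfp238 has its knockdown points lowest, Zfp423 its rescue points lowest, and Zfp57 its wild-type points lowest.

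Zfp238 had its lowest level in the knockdown. It stood at 90.0 FPKM in wild type and 80.0 in knockdown (log2 fold -0.17), 81.1 in knockdown and 91.6 in rescue (0.18), and 85.2 in wild type and 85.8 in rescue (0.01). None of these differences was called. For the same wild-type libraries its level was 90.0 FPKM in one table and 85.2 in the other, a log2 difference of -0.08 that comes from the tables and not from the animals.

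In bulk tissue fewer cells of a type and less RNA per cell cannot be told apart, and other genes moved with the groups. Of 12 tested models of activity-regulated genes (Arc, Fos, Junb, Egr1 and others) 7 were called lower in knockdown. In all, 10 lay below 0 and 2 above, and the sum of the 12 went from 264 to 196 FPKM. Fosb was among those above 0 (4.80 to 5.67 FPKM) and was not called. Of 13 such models 7 were called lower in rescue than in wild type and 2 lay above 0, with sums of 262 and 188 FPKM. Between rescue and knockdown 0 of 13 were called and 3 lay above 0, with sums of 197 and 190 FPKM. Zfp189 and Zfp948 were called in the same pair of comparisons. Striatal markers were called lower in 5 of 10 models in knockdown (193 to 167 FPKM) and 7 of 10 in rescue (198 to 149 FPKM), and Penk was called lower between knockdown and rescue (172 to 151 FPKM over the list). Olfactory bulb markers were called higher in 7 of 8 models in knockdown (28.2 to 76.6 FPKM) and 7 of 7 in rescue (28.1 to 45.4 FPKM). Between rescue and knockdown 6 of 8 were called lower (75.4 to 45.6 FPKM). Cortical excitatory markers were all tested, 7 of 7, at sums of 766 FPKM in wild type and 724 in knockdown. Of these 6 lay below 0 in knockdown, and Fezf2, a factor of deep-layer neurons, was called lower (12.6 to 9.40 FPKM). Between knockdown and rescue all 7 lay above 0 (736 to 764 FPKM). Against wild type, 5 of 7 lay below 0 in rescue (778 to 756 FPKM). Neither of these comparisons had a call among the 7. Interneuron markers were called higher in 4 of 6 models in knockdown (584 to 758 FPKM), with Calb2 alone called lower between knockdown and rescue (758 to 669 FPKM over the list) and higher in rescue than in wild type (579 to 663 FPKM). Meningeal and fibroblast markers were called higher in 3 of 5 models in knockdown (45.3 to 58.9 FPKM), and 0 of 5 in the other comparisons (59.1 to 51.3 FPKM and 45.5 to 50.9 FPKM). Astrocyte markers were called higher in 2 of 6 models in knockdown (289 to 334 FPKM), lower in 2 of 7 between knockdown and rescue (345 to 301 FPKM) and higher in 1 of 7 in rescue against wild type (294 to 297 FPKM). Of 2 erythroid models, 1 was called higher in rescue than in knockdown and in wild type. Oligodendrocyte, microglial and endothelial markers had 0 calls in any comparison, among 4 to 6 models each, which does not show equal levels. All 4 endothelial models lay above 0 in knockdown (36.4 to 41.7 FPKM) and all 5 in rescue against wild type (51.2 to 55.9 FPKM). Between knockdown and rescue 3 of 4 lay below 0 (42.1 to 40.8 FPKM). Of the oligodendrocyte models, 2 of 6 lay below 0 in knockdown. In rescue 5 of 5 lay below 0 against knockdown and 5 of 6 against wild type. The part of these genes and cell types in the levels of Zfp189 and Zfp948 was not tested.

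By known role, the RNA-binding and translation genes had 6 members of 9 listed. Zfp36 lay at 1.56 FPKM, under the minimum, and Zfp638 and Zfp91 had no model of their own. Zfp207, which acts in chromosome alignment and binds RNA, stood at 35.4 FPKM in wild type and 36.6 in knockdown. Zfp598, the ubiquitin ligase that marks collided ribosomes, stood at 11.4 and 11.5 FPKM, and Zfp622, a factor of large ribosomal subunit assembly, at 12.1 and 11.3 FPKM. None of the 6 was called, and their log2 folds ran from -0.09 to 0.06 in knockdown against wild type, -0.07 to 0.05 in rescue against knockdown and -0.06 to 0.07 in rescue against wild type.

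The neural development genes had 7 members of 9 listed, with Zfp503 at 0.689 and Zfp521 at 1.17 FPKM below the minimum. None was called in any comparison, and 5 of 7 lay below 0 in each. Zfp365 stood at 169 FPKM in wild type and 157 in rescue (log2 fold -0.10). Zfp703, a co-repressor, stood at 17.9 and 16.2 FPKM (-0.14). Zfp462 and Zfp536, a repressor of neuronal differentiation, had log2 folds from -0.02 to 0.07 over the 3 comparisons. Zfp238 or Zfp423, described above, had the lowest log2 fold of the list in each comparison.

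Of the imprinting and retroviral silencing genes 4 of 5 were members, and Zfp568 lay at 0.668 FPKM. Zfp445, which keeps imprints together with Zfp57, was among the highest genes of the set at 34.5 FPKM in wild type and 34.1 in knockdown. Zfp809, which recognises a retroviral primer binding site, stood at 4.35 and 4.29 FPKM, and Zfp932, another repressor of endogenous retroviruses, at 18.5 and 18.7 FPKM. Apart from Zfp57, whose values are above, the log2 folds of these genes ran from -0.02 to 0.05 over the 3 comparisons. None was called.

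Of the general activators and repressors, all 5 were members and Zfp189 alone was called. Zfp148 and Zfp281, related factors that bind GC-rich DNA, stood at 14.3 and 11.8 FPKM in wild type and 15.3 and 11.8 in rescue. Zfp219 stood at 11.98 FPKM in knockdown and 10.8 in rescue (log2 fold -0.15), and Zfp292 at 5.47 FPKM in wild type and 5.73 in knockdown (0.07). Neither was called.

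KRAB zinc finger proteins need partners to repress, and 33 genes of the KRAB co-repressor and heterochromatin machinery were tested in the same tables. Of 35, 35 and 37 models, 0 were called in knockdown against wild type, rescue against knockdown and rescue against wild type. Of all tested models, 2.52%, 0.689% and 0.841% were called in these comparisons. At such shares a list of this length would hold few calls or none, so the count does not set it apart. Median log2 folds of the list were -0.01, 0.01 and -0.00. Trim28, the co-repressor, stood at 41.2 FPKM in wild type and 41.4 in knockdown. The histone methyltransferase Setdb1 stood at 8.35 and 8.43 FPKM, and the heterochromatin protein gene Cbx5 at 32.8 and 32.4 FPKM. The levels of these 3 partners differed by less than 0.02 on the log2 scale between knockdown and wild type. Other genes of the list differed more, among them Atf7ip (0.12), Ehmt1 (0.11) and Suv39h1 (-0.12). Of the 35 models 15 lay above 0 and 20 below.

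The genes of the set were also split by protein and promoter features. Finger patterns (cysteine, 2 to 4 residues, cysteine, 12 residues, histidine, 3 to 5 residues, histidine) were counted in the longest coding sequence of 212 genes. Their median was 10, from 0 in 6 genes to 36 in Zfp142. A KRAB pattern was found in 77 genes, which had a median of 12 fingers and 3.85 FPKM, beside 8 fingers and 6.89 FPKM in the 135 without. A pattern that was not found, as in Zfp189, does not show that the domain is absent. The median log2 fold of genes with and without the KRAB pattern was 0.00 and -0.00 in knockdown against wild type, 0.00 and 0.00 in rescue against knockdown, and 0.02 and 0.00 in rescue against wild type. The 25 genes with TGACGT in the promoter included both called genes. Their median was -0.03 in knockdown against wild type, the comparison that also chose the set, with 18 of 25 below 0. It was 0.01 in rescue against knockdown and 0.01 in rescue against wild type, with 12 and 11 of 25 below 0. The 149 genes with a promoter but without TGACGT had medians of 0.01, -0.00 and 0.01 in the 3 comparisons. Of these 149 genes, 69, 77 and 64 lay below 0.

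**Figure D4:**
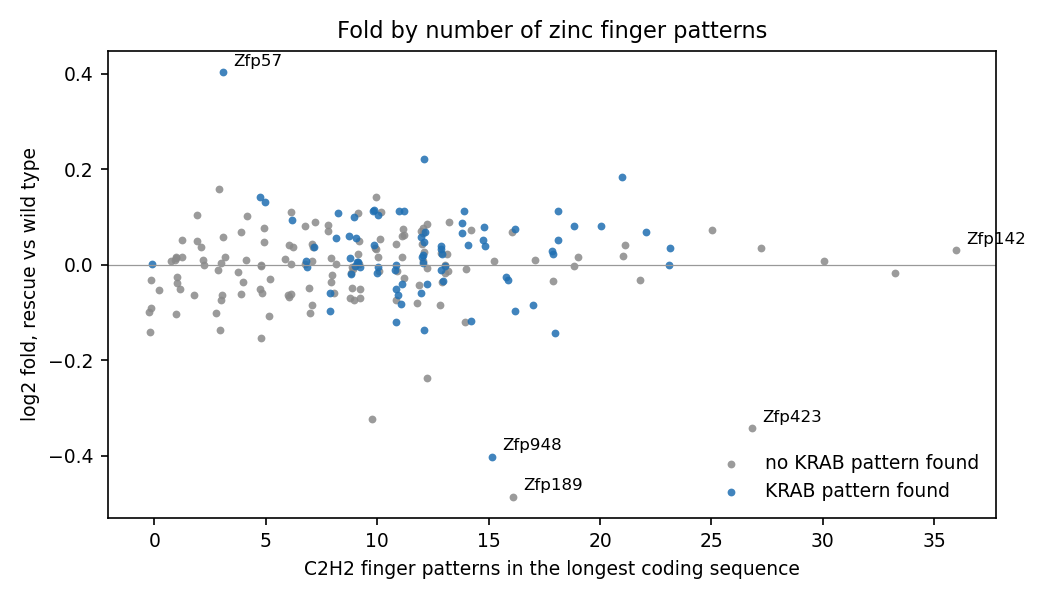
Log2 fold of rescue against wild type by the number of C2H2 finger patterns in the longest coding sequence (points spread sideways for legibility), with genes holding a KRAB pattern in blue. Most points of both colours lie near 0, while Zfp189 with 16 fingers, Zfp948 with 15 and Zfp423 with 27 lie lowest and Zfp57 with 3 lies highest.

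The genes were clustered along the chromosomes, with 57 of 214 on chromosome 7. Joining members less than 1 Mb apart gave 15 clusters of at least 3 genes, which held 91 genes, while another 91 had no member within that distance. The largest held 14 genes on chromosome 7, from Zfp84 to Zfp146, with median log2 folds of 0.02, -0.01 and 0.02 in the 3 comparisons and 0 called. Zfp948 lay in a chromosome 17 cluster of 11 genes whose median was -0.04 in knockdown against wild type. Its neighbours within 1 Mb had log2 folds of 0.05 (Zfp160), -0.08 (Zfp758), -0.03 (Zfp760), -0.01 (Zfp943), -0.19 (Zfp944) and 0.01 (Zfp946), and none of them was called. Zfp189 had no member of the set within 1 Mb. The model next to it, Mrpl50, lay 0.133 kb away and had a log2 fold of -0.03. No called model lay within 200 kb of Zfp189 or of Zfp948. Of the transcript bases of Zfp189 and Zfp948, 0% and 0.115% of 50-base words occur in another gene. In 36 of the 214 genes more than 10% of words were shared, up to 100% in Zfp935 and 92.3% in Zfp90, and the levels of these are uncertain. Among them are genes described above, such as Zfp932 (45.2%), Zfp106 (25.2%), Zfp335 (20.3%), Zfp367 (15.9%) and Zfp703 (11.7%). None of the 36 was called in any comparison. Of the 178 genes with at most 10% shared words, 2, 0 and 2 were called in the 3 comparisons. Over all tested models it was 2.52%, 0.689% and 0.841%, so the count does not set the 36 apart.

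The level of a gene also depended on how each table had been assembled. The same libraries enter a pair of tables, and the largest difference between tables for the same group had a median of 0.03 on the log2 scale over the 214 genes. It exceeded 0.2 in 15 genes and 1 in Zfp541 and Zfp867. Zfp541, known from meiosis in the testis, stood at 2.89 FPKM in wild type in the first table and 0.320 in the other, so it passed the minimum of 2 FPKM in the first table only. Zfp867 stood at 4.55 and 1.23 FPKM. Zfp341 stood at 4.87 FPKM for knockdown in the table with wild type and 3.31 in the table with rescue, a shift larger than its difference between groups. Zfp189 stood at 3.35 and 3.29 FPKM in wild type and Zfp948 at 4.07 and 3.97 FPKM, so their levels were nearly the same in both tables.

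**Figure D5:**
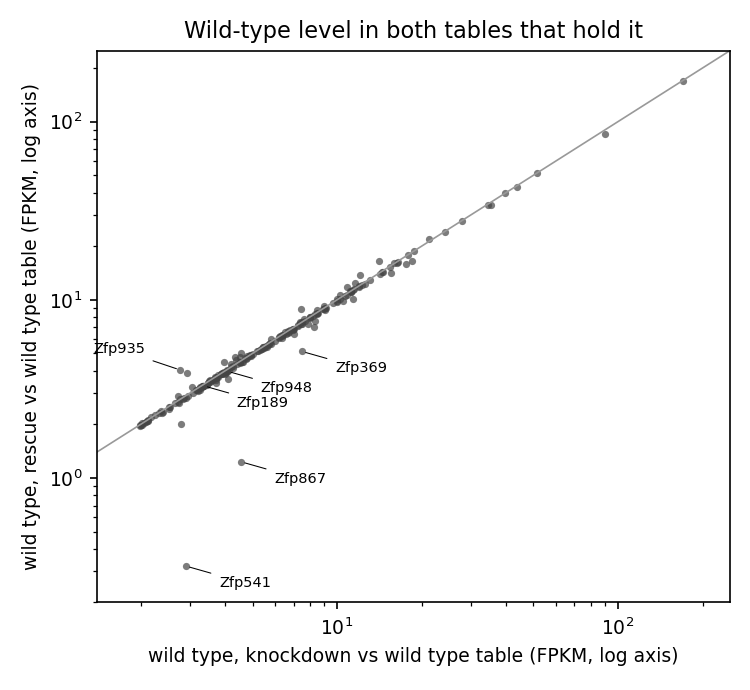
Wild-type level (FPKM, log axes) of each of the 214 genes in the knockdown table (x axis) and in the rescue table (y axis), with the line of equal values. Zfp189 and Zfp948 lie close to the line, while Zfp541 at 2.89 and 0.320 FPKM and Zfp867 at 4.55 and 1.23 FPKM lie far below it.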

How the data were processed

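Frontal cortex RNA of 12 mice was compared in 3 Cuffdiff tables, each for a pair of groups of 4. Per the submitters' processing notes, the authors used FastQC 0.65, TopHat, TopHat2 2.1.0, Cufflinks 2.2.1.0 and Cuffdiff 2.2.1.3 with mm10 and GRCm38. Per the file headers, the authors' tables give an FPKM per group, a log2 fold, a test statistic (a score), a p-value and a q-value per assembled gene model. The tables were assembled and normalised separately, and no value per animal is in them, so depth and spread between animals are unknown. All log2 folds were recomputed here from the deposited FPKM as second over first group. In the table of rescue against knockdown, 498 deposited log2 fold cells held no number. A model was called at p under 0.05 and q under 0.10, the threshold in the series' design text. The tests are the authors' own Cuffdiff tests across all models.

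Of several models of a gene the highest was used, matched across tables by symbol and overlapping locus. This concerned 13 genes. In GENCODE M21, 9 of the 214 genes carry another symbol. Finger and KRAB patterns were counted in translated GENCODE M21 coding sequences, and promoter letters in RefSeq promoters of GRCm38.p6. The genes named were those called, the 8 largest rises and falls per table, the 8 highest, the 3 on each side of the minimum and the members of 4 role lists. Genes outside this rule were picked with their values in view. The members and lists were chosen with earlier results of these data known. Python 3.11.15 with pandas 2.3.3 and numpy 2.4.6 was used, and counting and matching steps were tested on simulated data.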

Additional observations from a re-analysis of the deposited data

How the results depend on the processing

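The number of genes called depended on the threshold. With an unadjusted p under 0.05 alone it was 5 of 214 in knockdown against wild type, 3 in rescue against knockdown and 5 in rescue against wild type. With q under 0.05 it was 1 in rescue against wild type, where Zfp948 lost its call. With a minimum mean of 5 FPKM it was 0 in both comparisons with wild type, since Zfp189 and Zfp948 lie under that level and only 111 genes remained. A minimum of 1 FPKM or none, the minimum taken from the other knockdown table, genes with 1 model in every table, and, chosen after seeing the data, genes with at most 10% shared words kept all 3 counts. Medians of the set ran from -0.0075 to 0.0092, from -0.0018 to 0.0037 and from 0.0009 to 0.0215 in the 3 comparisons over the alternatives run. With log2(FPKM + 1), 34 of 162 folds of the named genes shifted by more than the error of the sum of the 3 comparisons. Among them were those of the called genes, which kept their direction: in knockdown and rescue against wild type Zfp189 went from -0.63 and -0.49 to -0.46 and -0.36, and Zfp948 from -0.39 and -0.40 to -0.30 and -0.31. Centring on the median of all tested models of at least 2 FPKM turned the sign of 3 folds, none larger than 0.0128. The deposited fold was not run for rescue against knockdown. No paired analysis was possible because the tables hold 1 value per group, and for the same reason no animal could be left out.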

Other observations

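Zinc finger genes of other families in the same tables included called genes, and the values of these are given here. The same minimum of 2 FPKM was applied to these families. Of 3 Egr genes above it, Egr1 fell from 83.1 FPKM in wild type to 59.0 in knockdown and Egr4 from 21.0 to 15.8 FPKM, both called in the authors' deposited table (q = 0.00456 and 0.0269). Both were also called lower in rescue against wild type, at 82.4 and 56.2 FPKM for Egr1 and 21.0 and 15.4 FPKM for Egr4. Egr2 lay below the minimum and was called lower in knockdown (2.14 to 1.25 FPKM) and in rescue (2.13 to 1.13 FPKM). Of 12 Klf genes, Klf10 fell from 12.1 to 8.63 FPKM in knockdown and was called lower in rescue as well, at 11.9 and 9.05 FPKM. Klf9 was called lower in rescue against wild type only, and whether its fold differed between comparisons was not tested.

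Sp8 and Sp9, transcription factors of interneuron development, rose in knockdown from 2.86 to 5.66 FPKM and from 3.40 to 5.07 FPKM, and Zic1 rose from 6.87 to 9.98 FPKM. Sp8 fell between knockdown and rescue from 6.03 to 4.25 FPKM, with q = 0.0118 in the authors' deposited table, and was called higher in rescue than in wild type (2.86 and 3.97 FPKM, q = 0.0404 in the authors' deposited table). Most olfactory bulb markers and the interneuron marker Calb2 were called in the same directions as Sp8 in all 3 comparisons, and Gad1, Gad2 and Sst were called higher in knockdown. The part of these cell types in the levels of Sp8, Sp9 and Zic1 was not tested. Among 21 Zbtb genes, 12 Zkscan and Zscan genes and 13 Zfp genes with a letter after the number, 0 were called in any of the 3 comparisons. Of all tested models 2.52%, 0.689% and 0.841% were called in knockdown against wild type, rescue against knockdown and rescue against wild type. Families this small would hold few calls or none at these shares.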
